A study of Mus musculus with 6 samples.

Results

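Histone genes were followed as a group, class by class, in presomitic mesoderm, the caudal tissue of the embryo that has not yet segmented into somites. Every probe set of the array table counted as a histone if at least 1 of its gene symbols was that of a linker, core or variant histone, which took in 63 of 18064 probe sets. They comprised 8 for linker H1, 5 for H2A, 17 for H2B, 11 for H3, 12 for H4 and 9 for variants, and 1 that named both an H2B and an H1 gene. Of the 63, 41 named 1 histone and 22 named several at once, because many core histone genes are near-identical copies. Together they named 74 histone symbols, of which 37 had a probe set of their own. Tissue came from 3 mutant pools (TCre/+;Taf10flox/flox) and 3 control pools, which the labels call WT and describe as Taf10Flox/+ or Taf10flox/flox. Each pool joined the presomitic mesoderm of 3 mouse embryos at embryonic day 9.5 with 17 to 19 somites, so no array reads a single embryo. Controls thus carry 1 or both floxed alleles, and their label names no Cre. T-Cre drives Cre from the promoter of T (Brachyury), which is active in the primitive streak and its mesodermal descendants, and cells from other lineages in the dissected piece would keep Taf10.

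Core histones H2A, H2B, H3 and H4 form the protein spool of the nucleosome, and linker H1 binds the DNA where it enters and leaves. Most genes of these classes lie in clusters, are transcribed in S phase together with DNA replication, and make mRNAs that end in a stem-loop in place of a poly(A) tail. Replacement variants such as the H3f3a, H3f3b and H2az1 products are made throughout the cell cycle from polyadenylated mRNA, and a few cluster genes also give polyadenylated mRNA in differentiated cells. TAF10 belongs both to TFIID, which positions RNA polymerase II at promoters, and to SAGA, a coactivator that acetylates histones and removes ubiquitin from H2B. The comparison addresses how histone gene expression differs when Taf10 is deleted in this tissue.

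The values are deposited intensities, used here as log2, and each change is the mutant mean minus the control mean, with its standard error (SE) from the limma fit over all 18064 probe sets. A probe set was called when its Benjamini-Hochberg adjusted p was under 0.05, which 1023 probe sets (5.66%) met. A Taf10 probe set stood at 10.40, 10.37 and 10.18 in mutant pools 1 to 3 and at 10.77, 10.61 and 10.69 in control pools 1 to 3 (change -0.37, limma adjusted p = 0.0431). A second Taf10 probe set, which rests on 1 of the same sequence records, had a change of 0.11 (limma adjusted p = 0.53). Nothing used here ranks them as readings of Taf10 or places either of them relative to the floxed part. Array medians were alike, from 307.9 to 317.5, but mutant pool 3 lay apart. It was the highest or lowest of the 6 arrays for 38 histone probe sets (60.3%) and for 69.7% of all probe sets. The 8 measured presomitic mesoderm markers had mean log2 levels of 9.76 to 12.35, and T itself was not measured. Of these, 2 rose and 1 fell. Tbx6, a transcription factor of this tissue, rose by 0.63 (limma adjusted p = 0.0146), Hes7, a gene of the segmentation clock, by 0.52 (limma adjusted p = 0.00897), and Rspo3, which codes for a secreted Wnt agonist, fell by 0.74 (limma adjusted p = 0.0146). All 3 missed the threshold without control pool 1, with limma adjusted p of 0.088, 0.0569 and 0.0764. Xist read 6.32 in control pool 3 and 11.35 to 12.57 in the other pools, so the sexes of the pooled embryos were not balanced.

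Of the 63 histone probe sets, 4 rose, 2 fell and 57 did not pass, so 9.52% were called beside 5.66% of the whole table, of which 2.75% were higher and 2.92% lower. With limma's unadjusted p under 0.05, 9 histone probe sets were higher and 4 lower, beside 22.9% of the table in either direction. H2bc4, H1f2, H1f10 and H2ax were the 4 that rose. H2bc18 and an H2A probe set shared by many genes were the 2 that fell. The median change of the 63 was 0.02, against 0.03 over the table. For 44 of the 63 (69.8%) the change was under 0.15 in size, as for 62.7% of all probe sets. Mutant and control values did not overlap for 20 histone probe sets (31.7%), a share near the 32.6% of the whole table. Values normalized between arrays do not show a shift that all genes share. Without mutant pool 3, 11 histone probe sets were called, 6 higher and 5 lower, beside 12.6% of the table. Without control pool 1 none was, beside 0.177% of the table. In a bulk sample, fewer cells of a type and less RNA per cell cannot be told apart.

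**Figure D1:**
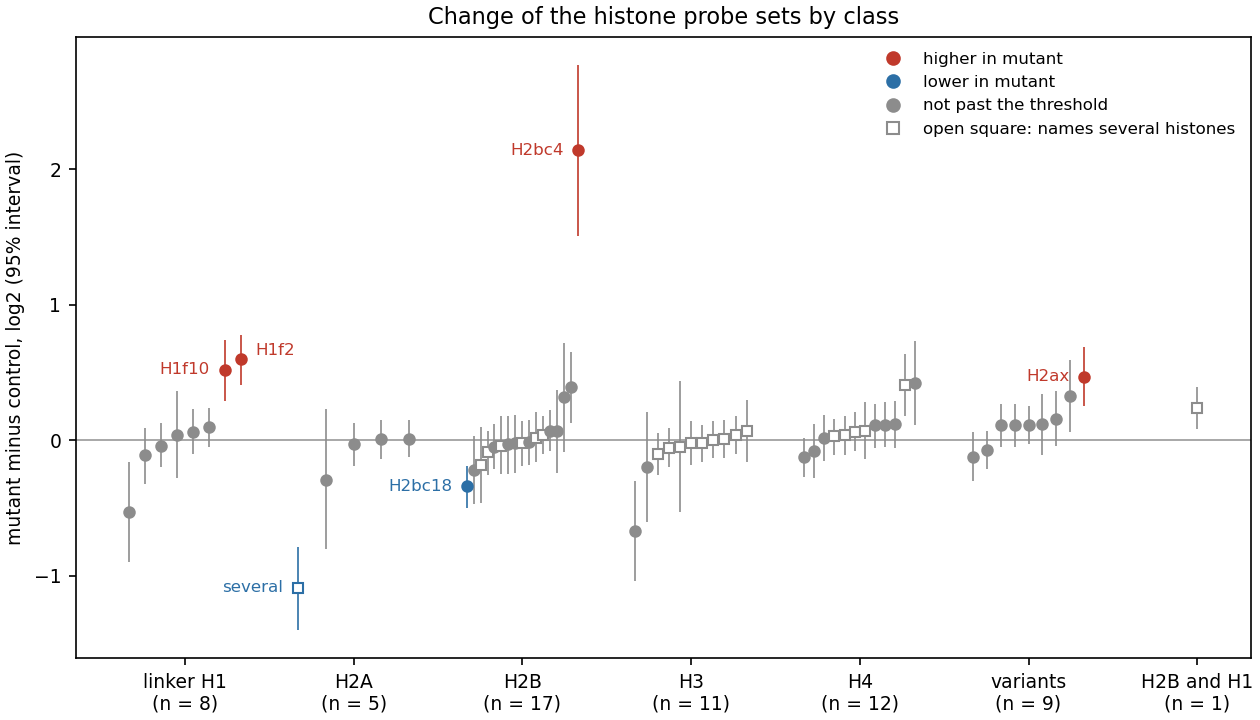
Log2 change, mutant minus control, of each of the 63 histone probe sets with its 95% interval, ordered within 7 columns by class. Filled circles name 1 histone and open squares several. The 6 called probe sets are coloured and labelled. Most points lie near 0, and H2bc4 lies far above the rest at 2.14.

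The upstream sequences of 3 called genes are shown because they differ in the elements known from histone promoters. They are RefSeq sequences of build GRCm38.p6, each 300 bases long, from 250 bases before to 50 after the gene's start, written 5′ to 3′ on the gene's strand. H1f2 lies at chr13:23738557-23738856 on the plus strand, H1f10 at chr6:87981433-87981732 on the minus strand and H2bc18 at chr3:96269450-96269749 on the plus strand. Capitals mark matches, on either strand, to 4 motifs: the TATA box (TATAAA), the CCAAT box (CCAAT), the H1 box (AAACACA) and the octamer (ATTTGCAT).
H1f2: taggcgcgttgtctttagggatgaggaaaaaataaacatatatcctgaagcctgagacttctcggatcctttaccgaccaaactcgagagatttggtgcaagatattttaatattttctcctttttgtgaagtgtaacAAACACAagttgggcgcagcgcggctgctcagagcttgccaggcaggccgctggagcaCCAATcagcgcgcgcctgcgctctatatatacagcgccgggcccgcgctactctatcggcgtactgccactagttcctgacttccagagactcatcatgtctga
H1f10: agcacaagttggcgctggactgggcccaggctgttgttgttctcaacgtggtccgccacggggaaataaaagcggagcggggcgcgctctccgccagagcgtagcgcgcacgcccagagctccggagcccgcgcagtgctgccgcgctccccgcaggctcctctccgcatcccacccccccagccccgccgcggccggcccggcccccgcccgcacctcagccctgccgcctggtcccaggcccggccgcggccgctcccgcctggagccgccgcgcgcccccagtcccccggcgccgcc
H2bc18: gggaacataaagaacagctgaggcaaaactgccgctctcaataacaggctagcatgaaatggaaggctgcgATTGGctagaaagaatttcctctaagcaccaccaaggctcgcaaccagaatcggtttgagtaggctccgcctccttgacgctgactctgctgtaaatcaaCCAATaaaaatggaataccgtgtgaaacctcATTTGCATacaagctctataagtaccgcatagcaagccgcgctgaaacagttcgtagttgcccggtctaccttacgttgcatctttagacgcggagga
In H1f2 the H1 box, an element of linker histone promoters, starts 112 bases before the gene's start and the CCAAT box 54 bases before it. H1f5, a linker gene not called at a change of -0.53, also has an H1 box, 117 bases before its start. Its CCAAT boxes include one at 53 bases, and it has a TATA box at 28 bases. In H2bc18 the octamer, the element that binds OCT1 in H2B promoters, starts 48 bases before the gene's start, with CCAAT boxes at 79 bases and, on the opposite strand, at 179 bases. H1f10 has none of the 4 motifs in this window, and 77.7% of its bases are G or C. Promoters of 67 of the 74 histone symbols were found in the table, and H2ax, H2bc21, H2bc4, H2bu1-ps, H3c1, H3c7 and H4c14 were not among them. The octamer was in 13 of these 67 (19.4%) and in 1.74% of all 32851 promoters, and its histone matches included 6 of 15 H2B and 6 of 17 H2A promoters. The CCAAT box was in 56 of 67 (83.6%), against 37.4% of all promoters, and in each of the 17 H2A, 15 H2B and 10 H3 promoters but only 3 of 12 H4 promoters. The TATA box was in 36 of 67 (53.7%) and in 13.6% of all. The H1 box was in 5 of 9 linker promoters (55.6%), against 7.18% of all. A match is a description of the letters in this window.

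Among the linker histones, H1f2 and H1f10 rose and the other 6 probe sets did not pass. H1f2, a replication-dependent somatic H1 gene, stood at 11.48, 11.28 and 11.52 in the mutant pools and at 10.84, 10.79 and 10.85 in the control pools. All mutant values lie above all control values, and the controls differ from one another by little. The means were 11.42 ± 0.13 in mutant and 10.83 ± 0.03 in control pools (SD, n = 3 each), a change of 0.60 (SE 0.08) or 1.51-fold, with limma adjusted p = 0.0105. Without control pool 1 or control pool 2 the limma adjusted p was 0.0699 or 0.0742, at changes of 0.60 and 0.58.

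H1f10 codes for a divergent linker histone whose gene is outside the clusters and is expressed independently of replication. It stood at 11.00, 10.87 and 11.06 in the mutant pools and at 10.43, 10.32 and 10.64 in the control pools. The groups do not overlap, and control pool 3 is the nearest to the mutants. The change was 0.52 (SE 0.10), 1.43-fold, with limma adjusted p = 0.028. It missed the threshold without mutant pool 1, mutant pool 2, control pool 1 or control pool 2, with limma adjusted p from 0.0526 to 0.133. The 2 genes that rose were thus assigned to different kinds, 1 tied to replication and 1 not. That assignment goes by gene name, and whether their mRNA was tied to S phase in these pools was not tested.

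H1f5, another somatic linker gene of the chromosome 13 cluster, had the lowest change of the class, -0.53. It stood at 11.97, 11.95 and 11.34 in the mutant pools and at 12.30, 12.28 and 12.26 in the control pools. Every mutant value is below every control value, and mutant pool 3 is far below the other 5. The limma adjusted p was 0.101 with all arrays, and 0.00842 without mutant pool 3 at a change of -0.32. H1f1 and H1f3 had changes of 0.04 and 0.10. The testis gene H1f6, the germ cell gene H1f7 and the oocyte gene H1f8 had changes of -0.11, 0.06 and -0.04.

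**Figure D2:**
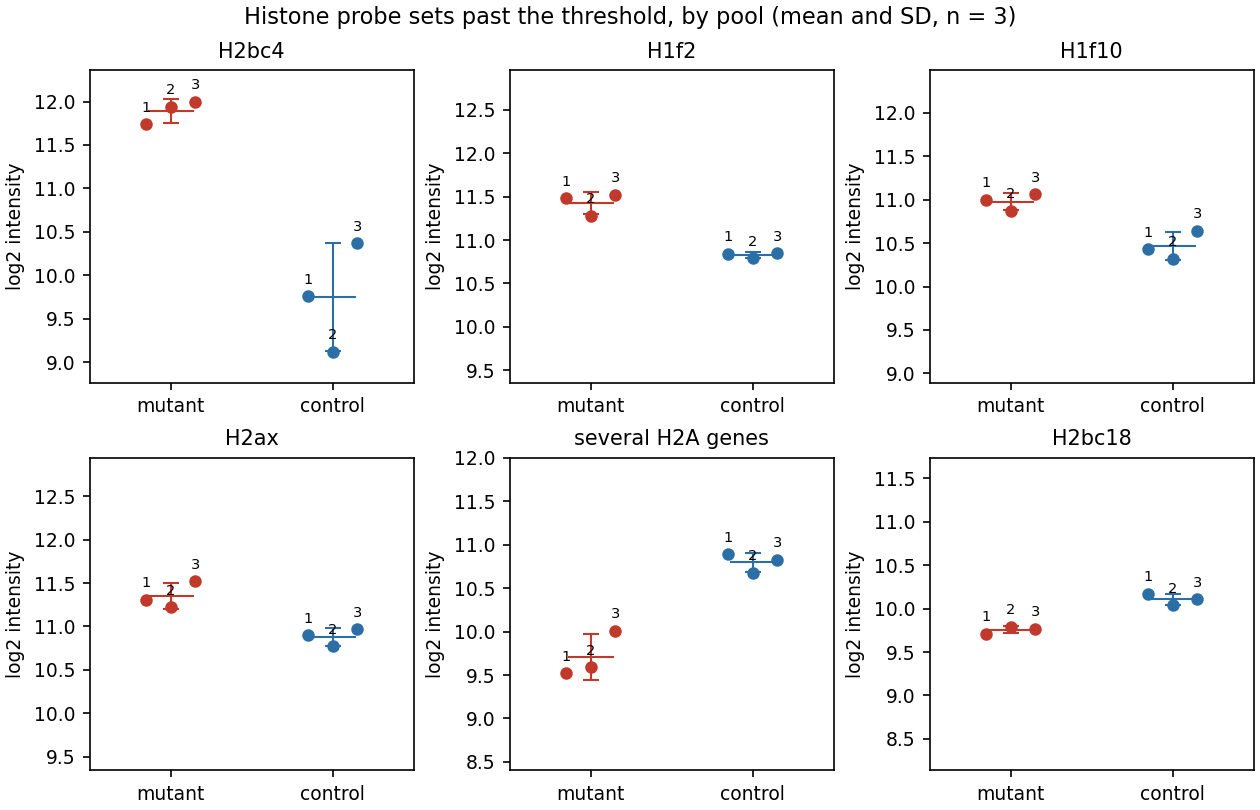
Log2 intensity of the 6 called histone probe sets in each pool, mutant left and control right. Points are pools, numbered 1 to 3, and lines are the mean and SD (n = 3), with the same span on every vertical axis. In each panel the 3 mutant values lie on one side of the 3 control values.

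H2B genes held both the largest rise and a fall. H2bc4, a replication-dependent H2B gene of the chromosome 13 cluster, stood at 11.74, 11.94 and 12.00 in the mutant pools and at 9.76, 9.12 and 10.37 in the control pools. The mutant pools are tightly grouped, and the controls spread over more than 1 log2 unit, with pool 2 lowest and pool 3 highest. The means were 11.90 ± 0.14 in mutant and 9.75 ± 0.62 in control pools (SD, n = 3 each). The change was 2.14 (SE 0.27, 95% interval 1.51 to 2.77), or 4.42-fold, with limma adjusted p = 0.00921. Leaving out 1 array at a time gave changes of 1.83 to 2.45, and the call was lost only without control pool 1 (limma adjusted p = 0.0674).

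Globin and haem genes marked blood in the pools, and their level varied too. The 4 measured blood markers, Hba-x, Hbb-y, Hbb-bh1 and Alas2, of which none was called and none was at 0, summed to 16487, 14578 and 3884 intensity units in the mutant pools and to 13117, 9177 and 22295 in the control pools. Within the controls H2bc4 and this sum have the same order. Mutant pool 3, however, had the lowest blood sum of the 6 arrays and the highest H2bc4. None of the 5 endothelial, 5 neural tube or 5 gut endoderm markers was called. Endothelial markers summed to 510, 1189 and 471 in the mutant pools and to 1787, 581 and 847 in the control pools. Neural tube markers summed to 941 to 997 in the mutant pools and 882 to 971 in the control pools, and gut endoderm markers to 530 to 585 in the mutant pools and 570 to 587 in the control pools. The part of blood and endothelium in the control spread of H2bc4 was not tested.

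The probe sets that name H2bc4 with other H2B genes were not called. These 6 had changes of -0.18 to 0.04 on mean levels of 12.25 to 13.69, and 0 passed, by limma at an unadjusted p under 0.05 as well. The H2bc4 probe set itself shares a sequence record with 5 other histone probe sets, so its reading may not be of H2bc4 alone.

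H2bc18, an H2B gene of the chromosome 3 cluster, fell in the mutant pools. It stood at 9.71, 9.79 and 9.77 in the mutant pools and at 10.17, 10.04 and 10.11 in the control pools. Both groups are tight and do not overlap. The means were 9.76 ± 0.04 in mutant and 10.10 ± 0.06 in control pools (SD, n = 3 each), a change of -0.34 (SE 0.06), or 78.7% of control, with limma adjusted p = 0.0284. It missed the threshold without any one array other than mutant pool 3, with limma adjusted p from 0.0742 to 0.132 at changes of -0.38 to -0.31. The exact two-sided permutation test gave p = 0.1 for H2bc4, H1f2 and H2bc18, the smallest that 3 against 3 allows.

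Other H2B genes with a probe set of their own lay on both sides of 0. H2bc21, of the chromosome 3 cluster, stood at 6.33, 6.51 and 6.58 in the mutant pools and at 5.99, 5.95 and 6.30 in the control pools, a change of 0.39 (limma adjusted p = 0.0872). H2bc8 had a change of 0.32 and H2bc9 one of -0.22. H2bc9 stood at 12.03, 12.10 and 12.42 in the mutant pools and at 12.38, 12.34 and 12.47 in the control pools. Its groups overlap through mutant pool 3, and without that pool its change was -0.34 (limma adjusted p = 0.0142). H2bc14, H2bc22, H2bc3, H2bu2, the testis gene H2bc1 and the pseudogene H2bu1-ps were within 0.07 of 0.

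H2A had 1 call. The H2A probe set of many genes names 18 histones, among them H2ax and an H3 gene, H3c4. It stood at 9.52, 9.59 and 10.01 in the mutant pools and at 10.89, 10.68 and 10.83 in the control pools. Mutant values all lie below control values, and mutant pool 3 is the nearest to the controls. The change was -1.09 (SE 0.13), which left 46.9% of control, with limma adjusted p = 0.00791. Without mutant pool 3 it was -1.24 (limma adjusted p = 0.00093), and without control pool 1 it was -1.05 and missed the threshold (limma adjusted p = 0.0618). The first of its 20 sequence records belongs to H2ac21, of the chromosome 3 cluster, but which of the named genes it reads is not settled here. The 4 H2A probe sets of 1 gene were not called. H2ac4 had a change of -0.29, with 12.18, 12.24 and 11.35 in the mutant pools and 12.12, 12.13 and 12.38 in the control pools. That difference rests on mutant pool 3. H2ac15, the largest rise of the class, had a change of 0.01, with 13.40, 13.40 and 13.45 in the mutant pools and 13.42, 13.39 and 13.41 in the control pools.

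**Figure D3:**
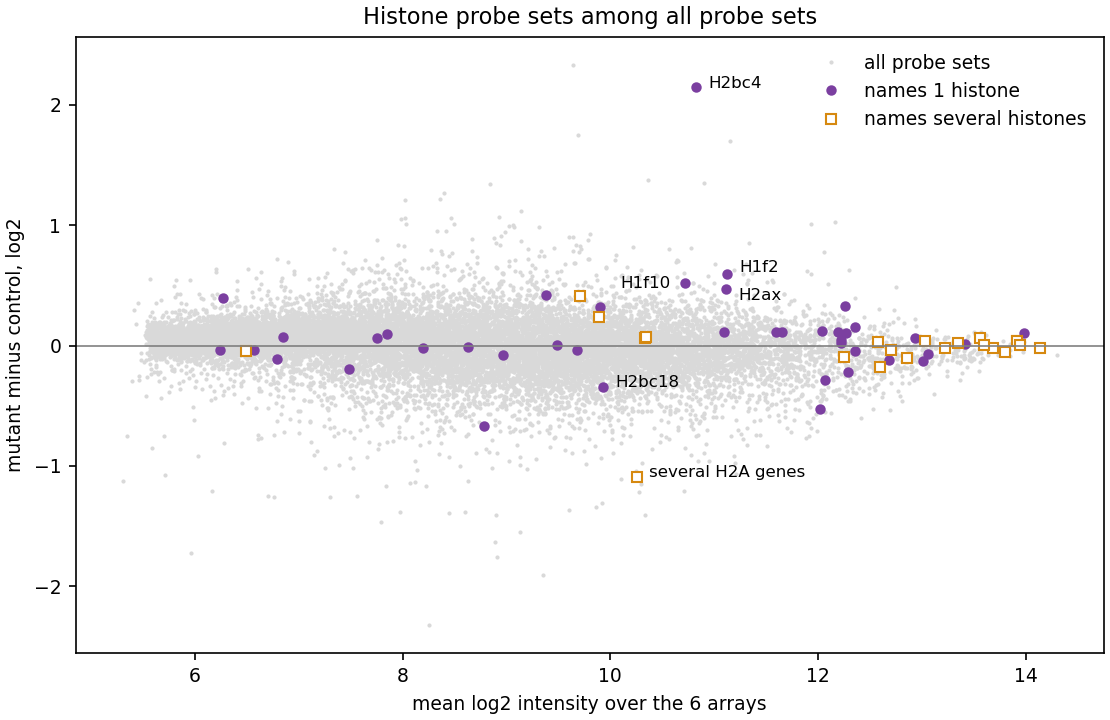
Change (mutant minus control, log2) against mean log2 intensity over the 6 arrays for all 18064 probe sets. Filled circles are histone probe sets that name 1 histone and open squares those that name several. Histone probe sets at the bright end lie close to 0, and the called ones lie below that end, at the 77.3 to 91.8 percentiles of mean level.

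No H3 probe set was called. H3c15, an H3 gene of the chromosome 3 cluster, had the largest fall of the class. It stood at 8.65, 8.51 and 8.20 in the mutant pools and at 9.33, 9.22 and 8.81 in the control pools, so the groups do not overlap. The change was -0.67 (SE 0.16), 62.9% of control, with limma adjusted p = 0.0552. It passed without control pool 3, at -0.83 (limma adjusted p = 0.0485). H3c4 had a change of -0.20 and overlapping groups. The other 9 H3 probe sets each name the same 12 histone genes, and their changes ran only from -0.10 to 0.07. The largest rise among them stood at 10.28, 10.25 and 10.60 in the mutant pools and at 10.34, 10.27 and 10.31 in the control pools, where mutant pool 3 alone is high. At an unadjusted p under 0.05 limma gave 1 H3 probe set, H3c15.

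No H4 probe set was called. Of the 12, 10 had changes above 0, as did 57.6% of the whole table, and the median was 0.07, against 0.03 over the table. The 2 largest were H4c9 and a probe set of H4c17 and H4c11, which were also the only ones at an unadjusted p under 0.05 by limma. H4c9 stood at 9.86, 9.63 and 9.29 in the mutant pools and at 9.17, 9.22 and 9.13 in the control pools. Its groups do not overlap, with mutant pool 3 nearest to the controls. The change was 0.42 (limma adjusted p = 0.116), and without mutant pool 3 it was 0.57 (limma adjusted p = 0.00545). The H4c17 and H4c11 probe set stood at 9.99, 9.78 and 9.95 in the mutant pools and at 9.5, 9.66 and 9.33 in the control pools, a change of 0.41 (limma adjusted p = 0.0575). H4c14, of the chromosome 3 cluster, was lowest of the class at -0.12, with 12.93, 12.99 and 12.93 in the mutant pools and 13.04, 13.03 and 13.15 in the control pools. The probe set of H2bc6 and H1f4 stood at 10.04, 9.92 and 10.06 in the mutant pools and at 9.76, 9.75 and 9.80 in the control pools, a change of 0.24 (limma adjusted p = 0.0805).

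Of the variants, H2ax rose and the replacement variants did not pass. H2ax codes for the H2A form that is phosphorylated at DNA breaks, and its gene gives both stem-loop and polyadenylated mRNA. It stood at 11.31, 11.22 and 11.52 in the mutant pools and at 10.90, 10.77 and 10.97 in the control pools. All mutant values lie above the controls, and mutant pool 3 is the highest. The change was 0.47 (SE 0.09), 1.39-fold, with limma adjusted p = 0.0333. The call held only without mutant pool 3 (limma adjusted p = 0.0148) when single arrays were left out, and the other 5 gave 0.0518 to 0.156. The H2ax probe set and the H2A probe set of many genes, which names H2ax as well, went in opposite directions.

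H3f3a and H3f3b code for the same replacement H3 protein, which is placed at active genes and regulatory regions. The 4 H3f3a probe sets, which also name the gene model Gm12657, had changes of 0.11, 0.11, 0.16 and 0.33. The last stood at 12.29, 12.32 and 12.66 in the mutant pools and at 12.16, 12.17 and 11.96 in the control pools (limma adjusted p = 0.137). In all 4 the mutant values lie above the control values, as in 16.6% of all probe sets, though none passed. Each of the 4 shares a sequence record with 3 other histone probe sets, so they are not independent readings. H3f3b stood at 12.20, 12.21 and 11.88 in the mutant pools and at 11.98, 11.96 and 12.01 in the control pools, a change of 0.12, with mutant pool 3 below all controls and the other mutants above them. H2az1, the gene of the H2A.Z variant found at promoters, had changes of -0.12 and -0.07 in its probe sets. The lower of these stood at 12.68, 12.72 and 12.48 in the mutant pools and at 12.74, 12.76 and 12.73 in the control pools. Its paralogue H2az2 had a change of 0.11.

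Calls by kind of expression are read beside the 5.66% of the whole table that was called. Of 47 replication-dependent probe sets 2 rose and 2 fell (8.51% called), with a median of 0.01. Of 9 replication-independent probe sets 1 rose, H1f10 (11.1% called), with a median of 0.11. The 5 germ cell probe sets and the pseudogene gave 0 calls by limma, and 0 at an unadjusted p under 0.05. Probe sets of several histones gave 1 call in 22 (4.55%), with a median size of change of 0.04. Those of 1 histone gave 5 in 41 (12.2%), with a median size of 0.11. Brightness goes along with this. The 15 histone probe sets with a mean log2 level of at least 13 had changes of -0.12 to 0.11 and 0 calls, at an unadjusted p under 0.05 too. Over the table, 146 probe sets were that bright and 0 were called (4 fell at an unadjusted p under 0.05). Whether such bright probe sets were near saturation was not tested. All 6 calls came from the 48 below that level.

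Among genes with a probe set of their own, the calls did not form a run of neighbours in the clusters. In RefSeq gene order the chromosome 13 cluster holds 55 of the histone genes named here, 22 with a probe set of their own, of which 2 rose and 0 fell. Their median was 0.02, in a range of -0.53 to 2.14. H2bc4 and H1f2 lie near each other, with H1f6 and H4c3 between them at -0.11 and 0.11. The testis gene H1f6 was at the 21.8 percentile of mean level. H2bc6 and H1f4 lie just before H2bc4, with H2ac6, which has no probe set of its own, between. Their shared probe set had a change of 0.24 (limma adjusted p = 0.0805). Whether neighbours in this stretch moved together was not tested. In the chromosome 3 cluster 4 of 10 genes had their own probe set. H2bc18 fell, and H3c15 and H4c14 had changes of -0.67 and -0.12. H2bc21, at the 12.1 percentile of mean level, had one of 0.39. The genes H2bc4 and H2bc18, both of class H2B, thus moved in opposite directions in different clusters.

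**Figure D4:**
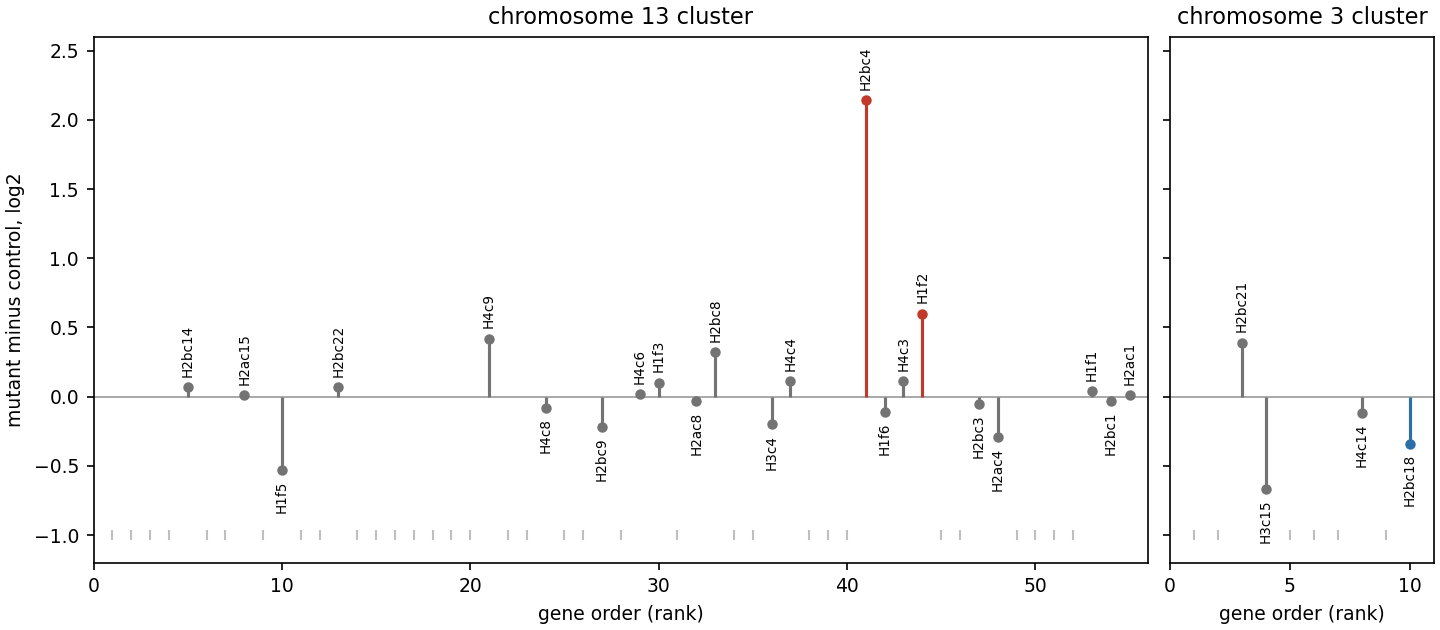
Change (mutant minus control, log2) of the histone genes with a probe set of their own, by gene order in the chromosome 13 cluster (left) and the chromosome 3 cluster (right). Ticks at the bottom mark genes with no probe set of their own, red marks a called rise and blue a called fall. Between the rises of H2bc4 and H1f2 lie H4c3 and H1f6, both near 0, with H1f6 at the 21.8 percentile of mean level.

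Genes that make, process and carry histones fell in a few cases. Over the 15153 genes with 1 probe set each, 2.86% were called higher and 2.78% lower. Of 20 genes for histone mRNA synthesis and processing, 2 fell and 0 rose, with a median of -0.05. Eri1, the exonuclease that trims and degrades histone mRNA 3′ ends, stood at 10.12, 10.11 and 10.09 in the mutant pools and at 10.42, 10.34 and 10.42 in the control pools. It fell to 82.0% of control (change -0.29, limma adjusted p = 0.0386). Ccne1, cyclin E1, which with CDK2 activates NPAT at histone genes, fell to 81.5% of control (change -0.29, limma adjusted p = 0.0407). The groups do not overlap in either gene. Lsm10, a subunit of the U7 particle that cleaves histone pre-mRNA, had a change of 0.44 (limma adjusted p = 0.0612). Slbp, whose product binds the stem-loop, had a change of 0.00, and Npat one of -0.08. Zfp473 and Hinfp, known from histone mRNA processing and histone H4 transcription in human cells, had changes of 0.21 and -0.15.

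Of 25 histone chaperones and importers, 1 fell (4.0%) and 0 rose, beside 2.78% of all genes called lower and 2.86% higher. Nap1l1, a chaperone of H2A and H2B, stood at 12.40, 12.43 and 12.28 in the mutant pools and at 12.76, 12.74 and 12.63 in the control pools. It fell to 79.0% of control (change -0.34, limma adjusted p = 0.0392). The median of the list was -0.17, against 0.03 over all 15153 genes, and 18 of its 25 genes were below 0, as were 40.7% of all genes. Among the 18 were Set (-0.46), Npm1 (-0.37) and Chaf1b (-0.28), with limma adjusted p of 0.0735, 0.0935 and 0.0862. The 4 other variant genes, Macroh2a1, Macroh2a2, Cenpa and H2al2a, had changes of 0.10, -0.12, -0.09 and 0.14, and 0 passed, by limma at an unadjusted p under 0.05 as well.

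Replication genes were measured beside them because core histone synthesis is tied to S phase. Of 32 genes of the replication core 4 fell (12.5%) and 0 rose, beside 2.78% of all genes called lower and 2.86% higher. The median was -0.15 and 24 were below 0, read against the same 0.03 and 40.7%. Gins1, of the replicative helicase, stood at 9.39, 9.27 and 8.72 in the mutant pools and at 10.07, 10.02 and 9.90 in the control pools. Its change was -0.87 (limma adjusted p = 0.0276), with mutant pool 3 lowest. The helicase subunits Mcm3 and Mcm7 and the helicase activator Mcm10 had changes of -0.42, -0.34 and -0.37 (limma adjusted p of 0.0254, 0.0339 and 0.0155), and the groups do not overlap in any of the 4. Rrm2, a subunit of ribonucleotide reductase, the licensing factor Cdt1 and the single-strand binding protein gene Rpa2 had changes of -0.29, -0.30 and -0.36 and did not pass (limma adjusted p of 0.051, 0.0759 and 0.0952). The replication-dependent histone probe sets had a median of 0.01 in the same fit. Some of them are among the 15 brightest histone probe sets, whose median size of change was 0.04. Whether those were near saturation was not tested, which limits the comparison of the medians. All 7 calls of the processing, chaperone and replication lists were lost without control pool 1 (limma adjusted p of 0.0866 to 0.168). When single arrays were left out, the processing and chaperone lists had calls only without mutant pool 3, with 2 and 5 lower. The replication core also had 0 calls without mutant pool 2, control pool 2 or control pool 3. It had 3 lower without mutant pool 1 and 6 without mutant pool 3.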

How the data were processed

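RNA of 6 pools of mouse presomitic mesoderm was labelled from 150 ng of total RNA and hybridised to 1-colour arrays, per the labels' protocols. The deposited values are linear intensity values made by RMA (background correction, normalization across arrays and a summary of each probe set), per the submitters' processing notes. No RMA version, chip description or filter is stated. Probe sets were named from GEO's platform annotation, and all 74 histone gene IDs matched RefSeq's table of GRCm38.p6. With no other normalization or filter, log2 intensities of all 18064 probe sets went into 1 model of genotype (lmFit and eBayes of limma 3.58.1, R 4.3.3). P-values were adjusted over all of them by Benjamini-Hochberg. A list gene took its single-symbol probe set with the highest mean. The number of arrays limits the precision. Pools are labelled as biological replicates, whose spread sets the p-values. The members, classes, lists and the rule for naming were chosen with earlier results of these data known. By that rule the text gives every array's value for H2bc4, H1f2, H2bc18, each called histone probe set and the largest rise and fall of each class, and names each list's called genes and up to 3 more with the smallest p. Other histones with values, and Slbp and Npat, were named after their values were seen. The alternatives were a replicate block, quantile normalization, centring on the median, a filter at the 40th percentile of level, single-symbol probe sets, an intensity trend, array weights and each array left out. The fit was tested on simulated data. Probe set levels are not compared as amounts of RNA, but probe sets were split and ranked by brightness and marker intensities were summed. No probe positions were used.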

Additional observations from a re-analysis of the deposited data

How the results depend on the processing

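With 3 arrays a group, calls near the threshold changed with single arrays. Leaving out 1 array at a time gave 0 to 6 histone probe sets higher and 0 to 5 lower, and 0 of either without control pool 1, where 32 of all 18064 probe sets were called (0.177%). Without mutant pool 3 there were 2276 such calls (12.6%). The ranges over left-out arrays were 0 to 2 higher and 0 to 1 lower for linker, 0 to 1 lower for H2A, 0 to 1 higher and 0 to 3 lower for H2B, 0 to 1 lower for H3, 0 to 1 higher for H4 and 0 to 2 higher for variants. They were 0 to 3 higher and 0 to 5 lower for replication-dependent and 0 to 2 higher for replication-independent probe sets. They were 0 to 2 lower for mRNA processing, 0 to 5 lower for chaperones and 0 to 6 lower for the replication core. The log2 changes ranged from 1.83 to 2.45 for H2bc4, 0.55 to 0.67 for H1f2 and -0.38 to -0.31 for H2bc18.

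Array weights, which gave mutant pool 3 a weight of 0.122, called 4455 of all probe sets (24.7%). With them 11 histone probe sets were higher and 7 lower: 3 linker higher and 2 lower, 1 H2A lower, 2 H2B higher and 3 lower, 1 H3 lower, 2 H4 higher, 3 variant higher and the H2B and H1 probe set higher (1). By kind this was 7 higher and 6 lower replication-dependent and 3 higher replication-independent. The lists had 2 higher for mRNA processing, 9 lower for chaperones, 1 lower among other variants, and 1 higher and 14 lower in the replication core. Restricting to single-symbol probe sets left 1 histone lower in all, 1 lower replication-dependent and 0 lower H2A, and counting only probe sets that name 1 gene also left 0 lower H2A, since that probe set names several. Quantile normalization left 1 mRNA processing gene and 0 chaperones lower. Median centring, the filter and the trend kept the same 6 histone calls. No direction turned in the results recomputed under these alternatives.

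Deviations of same-numbered pools correlated at 0.14, 0.09 and 0.31. Those of differently numbered pools correlated at 0.15, -0.27, 0.19, -0.26, -0.19 and -0.14. These values do not settle whether the numbers mark pairs, and the main fit did not take them as pairs. A replicate block called 8 histone probe sets, adding H2bc21 (limma adjusted p = 0.0447) and H3c15 (0.0104), which made 2 H2B higher and 1 H3 lower. H2bc21 was at the 12.1 percentile of mean level, below the level filter. Under the block 1 mRNA processing gene was higher and 1 lower, and 2 chaperones were lower, among 1200 calls in all.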
